A study of Sus scrofa with 12 samples.

Results

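The weaning response of the piglet jejunum was compared between litters of control sows and litters of sows fed resveratrol, and all 12 of the 12 libraries of the series entered this comparison. Whole-tissue RNA of the jejunum was sequenced from 3 piglets in each of 4 groups. Piglets of control sows were taken at 21 days of age, the day of weaning (W-Con), and at 28 days of age, 7 days later (PW-Con). Piglets of the same ages came from sows whose diet held 300 mg/kg resveratrol (W-Res and PW-Res). Per the labels, the sows were bred with pooled Landrace semen, the diets started 20 days after breeding and went on through gestation and lactation, litters held 9 to 12 piglets after cross-fostering within a diet, and the weaned piglets stayed in their pens. The study's methods, which cover the control libraries alone, give Yorkshire × Duroc males, 1 per litter at each age, and a move to a nursery, so the 2 descriptions of the control animals differ. Which libraries came from the same litter is not given in the sources used here. The piglets themselves were not given resveratrol in either description. The 21-day piglets are called sucking and the 28-day piglets weaned below. Age and weaning changed together in every litter and cannot be told apart.

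The jejunum is the main absorbing part of the small intestine, where enterocytes on the villi split sugars and peptides at the brush border, take up fat, and send it out as chylomicrons. Weaning takes away milk, with its fat and lactose, and brings solid plant feed, and the villi, the immune cells below them and the supply of digestive enzymes are all known to change in that week. Resveratrol is a plant polyphenol studied for its action on sirtuins, on the energy sensor AMPK and on antioxidant enzymes. The question of the comparison is whether the change between 21 and 28 days depended on the diet of the sow.

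Levels are FPKM, fragment counts scaled to transcript length and to the size of the library, summed over the loci of a gene name. The weaning effect is the group mean of log2(FPKM + 1) at 28 days minus that at 21 days. The difference is the weaning effect in resveratrol litters minus that in control litters, so that a positive difference is a weaning effect that is higher in resveratrol litters. A gene is said to be called when its unadjusted P in limma is under 0.05 and its log2 difference is above 1 or below -1, which is the standard of the study. On this scale the change of genes with low FPKM is understated.

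Among 12886 genes tested, 1000 (7.76%) were called for the difference. The weaning effect was higher in resveratrol litters for 233 of them (1.81% of all tested) and lower for 767 (5.95%). The smallest adjusted p in limma was 0.251, so that no gene passed 0.05 after adjustment, while 1770 genes had an unadjusted P under 0.05. Up to 2 genes passed after adjustment with a library left out, and 1 without the filter on low FPKM. A linear model without moderation, with the library-size covariate of Ballgown, gave 635 genes with an unadjusted P under 0.05 and also none after adjustment. The adjusted p of the called genes named below lies between 0.251 and 0.356 in limma, so none of the single-gene differences passes a correction for the number of genes. The split of the calls depended on the scaling of the libraries. The median difference over all genes was -0.15 on the log2 scale, and after median-of-ratios rescaling the calls were 388 higher and 518 lower (57.2% lower in place of 76.7%). After quantile normalization 376 were higher and 446 lower (54.3% lower). The Ballgown model called 182 higher and 136 lower (42.8% lower), and 112 of these 318 genes were also among the 1000.

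The difference is built from the weaning effects of the 2 diets, each between different piglets. In control litters 399 genes (3.10%) were called between 21 and 28 days, 175 higher (1.36%) and 224 lower (1.74%) in weaned piglets. In resveratrol litters 636 genes (4.94%) were called, 127 higher (0.986%) and 509 lower (3.95%). This split also depended on the scaling, with 220 higher and 305 lower after median-of-ratios rescaling, 183 and 227 after quantile normalization, and 123 and 111 with the Ballgown model. After adjustment in limma neither diet held a gene under 0.05, and before it there were 1974 and 2274. The Ballgown model gave 41 genes after adjustment in control litters and 0 in resveratrol litters, where 463 passed before it. The zero counts of limma did not hold in other fits. In resveratrol litters 110 genes passed after adjustment without W-Res library 1, 130 without W-Res library 3, up to 3 without any other library and 8 without the filter. In control litters 44 passed with a minimum of 5 FPKM and up to 3 without a library. The litters share no library in these effects. Of the genes called in both, 40 moved in the same direction and 5 in opposite directions. Across the 12886 genes, which are not independent replicates, Pearson's r between the 2 effects was 0.13.

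The called genes were sorted by the size of the weaning effect in each diet, with a limit of 0.5 on the log2 scale. The sorting uses the contrast itself and is a description. Reversed genes had effects of opposite sign past the limit in both litters, and there were 289 of them, 220 with a lower and 69 with a higher effect in resveratrol litters. Lost genes had an effect past the limit in control litters only, and there were 261, 139 lower and 122 higher. Gained genes had an effect past the limit in resveratrol litters only, and there were 447, of which 406 were lower and 41 higher. The gained genes were split into 256 lower and 103 higher after median-of-ratios rescaling, 197 and 74 after quantile normalization, and 67 and 84 with the Ballgown model. The remaining 3 moved the same way in both litters. The classes have soft edges. With a limit of 0.3 the numbers were 591 reversed, 132 lost and 264 gained, with the Ballgown model 110, 50 and 151, with a pseudocount of 0.1 587, 297 and 421, with a minimum of 5 FPKM 128, 136 and 99, and with the smooth muscle score 157, 101 and 242. Single libraries also moved them. Without W-Con library 3 there were 171 reversed, 162 lost and 291 gained genes, and the gained genes were 721 without W-Res library 1, 265 without W-Res library 2 and 672 without W-Res library 3. Further, 206 genes with an unadjusted P under 0.05 had an absolute difference between 1 and 1.1, against 185 between 0.9 and 1.

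**Figure D1:**
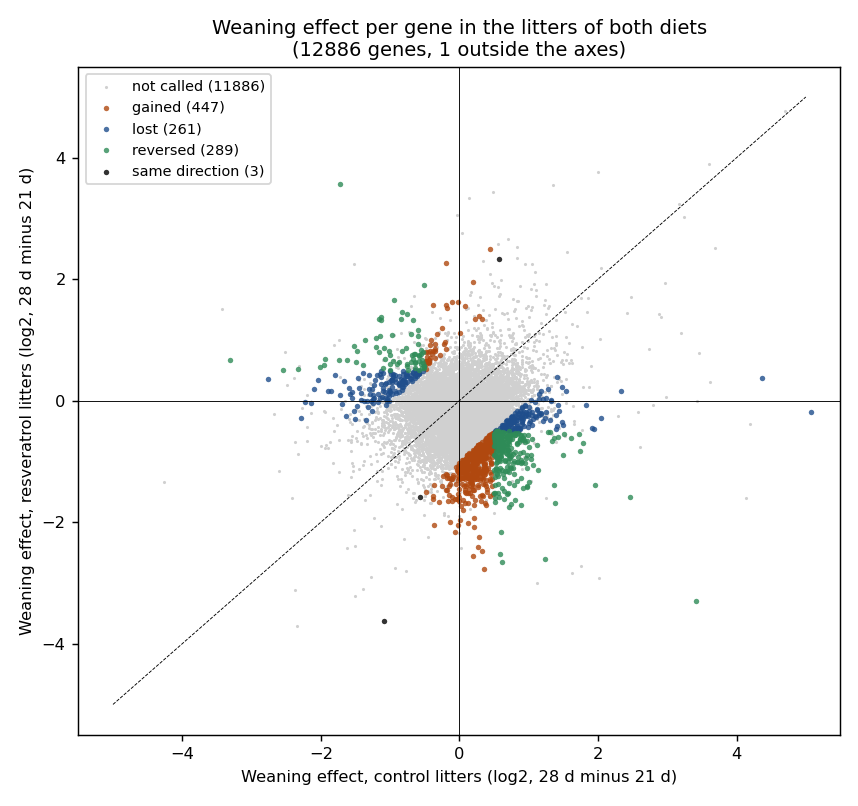
Weaning effect of each of 12886 genes in control litters (horizontal axis, log2) and resveratrol litters (vertical axis, log2), each point a gene, coloured by class; the dashed line marks equal effects and 1 gene lies outside the axes. The 447 gained genes lie mainly below the horizontal line near a control effect of 0, the 261 lost genes lie along the horizontal line, and the 289 reversed genes fill the upper left and lower right corners.

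The group means behind the called genes were read at the deposited scaling only, as a description. The genes were chosen by the same contrast, so these counts cannot show at which age the differences arose. The litters of the 2 diets lay further apart in sucking than in weaned piglets for 778 of the 1000 called genes (77.8%), against 59.6% of all genes tested. Of the 767 genes with a lower effect, W-Res had the highest group mean for 615 and W-Con the lowest for 409. Of the 233 genes with a higher effect, W-Con had the highest group mean for 164 and W-Res the lowest for 113. For 128 of the called genes the ages were fully separated in each diet and in opposite directions, which was true of 205 (1.59%) of all genes tested. Full separation in control litters was seen for 24.9% of all genes and in resveratrol litters for 21.7%.

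The libraries were not alike in other ways, and this touches every result below. W-Res libraries 2 and 3 stood apart, with a median over all loci of 1.12 and 0.836 FPKM, against 0.238 to 0.479 FPKM in the other 10. Pearson's r between replicates across genes was 0.881 to 0.911 in W-Res and 0.921 to 0.961 in the other groups. Without these 2 libraries 851 genes were called, 200 higher and 651 lower, 471 of them among the 1000. In this fit W-Res is 1 library, which is assumed to vary like the libraries of the other groups, and this holds wherever the fit is named below. The 7 genes that had an adjusted p under 0.05 in it in limma therefore rest on a group with no replicate. With each library left out in turn the count went from 630 without W-Con library 3 to 1363 without W-Res library 1, and it was 705 without W-Res library 2. The call held in all 12 of these fits for 390 genes, 302 lower and 88 higher. FPKM are not read counts, so that the number of reads behind a gene is unknown here. Markers of distal gut also differed between libraries. FABP6, the ileal bile acid-binding protein, was at 8055, 1231 and 9.10 FPKM in W-Con, 9621, 8791 and 6518 FPKM in PW-Con, 128, 12.2 and 6146 FPKM in W-Res and 24110, 1.70 and 4.81 FPKM in PW-Res. High and low libraries occurred in every group but PW-Con, and the difference was -5.74 with a standard error of 4.77 and an adjusted p of 0.612 in limma. With a score of distal minus proximal gut markers as a covariate, added after seeing the data, 981 genes were called.

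Among the genes with a reversed and lower effect, those with the smallest P were GAS6, FOLR2, ADORA2A, RAB3IL1 and PAIP2. GAS6, the secreted ligand of the TYRO3, AXL and MERTK receptor kinases that macrophages use to clear dying cells, was at 2.59, 2.16 and 1.2 FPKM in W-Con and 3.38, 4.09 and 3.11 FPKM in PW-Con. In resveratrol litters it was at 6.93, 9.69 and 6.33 FPKM in W-Res and 2.59, 3.17 and 2.34 FPKM in PW-Res. The weaned libraries were all above the sucking libraries in control litters and all below them in resveratrol litters, with weaning effects of 0.63 and -1.21. The difference was -1.84 (SE 0.32, adjusted p = 0.251 in limma). FOLR2, a folate receptor of macrophages, had the same form, with 2.04, 1.98 and 0.574 FPKM in W-Con, 3.64, 4.24 and 3.48 FPKM in PW-Con, 4.74, 8.02 and 8.47 FPKM in W-Res and 3.36, 1.36 and 1.52 FPKM in PW-Res. Its difference was -2.39 (SE 0.45). ADORA2A, an adenosine receptor that dampens immune cells, differed by -2.38 (SE 0.45), RAB3IL1, an exchange factor for Rab proteins of vesicle traffic, by -1.63 (SE 0.31), and PAIP2, an inhibitor of poly(A)-binding protein in translation, by -1.65 (SE 0.32). For all 5 genes W-Res was the group with the highest mean, and the sucking and weaned libraries were separated in opposite directions in the litters. Leaving out any single library left these 5 calls in place, and the call of ADORA2A was lost with single loci. In whole tissue, fewer cells of a type and less RNA per cell cannot be told apart.

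Among the genes with a reversed and higher effect, those with the smallest P were SS18L2, USMG5, ZNF24, TNFSF10 and ETV3. SS18L2, a small homologue of the chromatin remodelling subunit SS18, was at 35.6, 51.6 and 39.1 FPKM in W-Con and 15.8, 12.0 and 14.9 FPKM in PW-Con. It was at 16.0, 19.2 and 16.0 FPKM in W-Res and 38.7, 18.2 and 27.5 FPKM in PW-Res. It fell with weaning in control litters, with an effect of -1.49, and its effect in resveratrol litters was 0.63, where 1 weaned library lay within the sucking range. The difference was 2.12 (SE 0.36, adjusted p = 0.251 in limma). TNFSF10, the death ligand TRAIL, was at 30.4, 22.3 and 28.9 FPKM in W-Con, 11.8, 16.1 and 24.2 FPKM in PW-Con, 9.32, 6.74 and 3.72 FPKM in W-Res and 17.8, 23.0 and 12.4 FPKM in PW-Res. It rose in resveratrol litters by 1.33, the control effect was -0.66, and the difference was 2.00 (SE 0.47). USMG5, a small protein of the mitochondrial ATP synthase, differed by 2.42 (SE 0.48) at 0.270 to 5.40 FPKM, and the zinc finger factor ZNF24 by 1.51 (SE 0.33). ETV3, a repressor of the ETS family, differed by 1.16 (SE 0.28), and by 1.00, short of the limit, without PW-Res library 1. All 5 genes were highest in W-Con.

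The genes with a lost effect had their larger effect in control litters. C11orf68 rose in control litters from 6.51, 5.25 and 5.25 FPKM to 10.8, 15.4 and 12.5 FPKM, an effect of 1.05. In resveratrol litters it was already at 11.8, 16.1 and 12.5 FPKM in sucking piglets and at 9.35, 9.26 and 11.1 FPKM in weaned piglets. The W-Res libraries overlapped those of PW-Con. The difference was -1.45 (SE 0.26, adjusted p = 0.251 in limma). SLC39A13, a zinc transporter of the ER and Golgi, rose in control litters from 2.68, 2.76 and 4.22 FPKM to 10.4, 10.3 and 11.4 FPKM. It was at 7.71, 6.70 and 8.49 FPKM in W-Res and at 5.09, 8.89 and 4.17 FPKM in PW-Res, and the difference was -1.83 (SE 0.34). RNASEK, a ribonuclease tied to the vacuolar proton pump, was at 15, 17.1 and 16.0 FPKM in W-Con, 33.4, 36.4 and 24.9 FPKM in PW-Con, 41.6, 43.2 and 44.9 FPKM in W-Res and 39.8, 34.8 and 36.7 FPKM in PW-Res. Its W-Con libraries stood below all 9 others, and the difference was -1.14 (SE 0.24). TMEM173, the cytosolic DNA-sensing adaptor STING, differed by -1.21 (SE 0.25), and PTOV1 by -1.12 (SE 0.23). None of these 5 calls was lost when a single library was left out. After median-of-ratios rescaling the calls of PTOV1 and RNASEK were lost, and after quantile normalization that of TMEM173. The Ballgown model ended the calls of PTOV1 and TMEM173, and the smooth muscle score that of TMEM173.

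On the other side, GART, an enzyme of purine synthesis, fell in control litters from 16.6, 13.3 and 13.9 FPKM to 7.53, 5.39 and 6.80 FPKM, an effect of -1.05. In resveratrol litters it was at 12.8, 9.39 and 12.0 FPKM before and 12.0, 10.1 and 11.8 FPKM after weaning, an effect of -0.01. Its difference of 1.04 (SE 0.26) lies at the limit and was 0.95, 0.92, 0.92 and 1.00 without W-Con library 1, PW-Con library 2, W-Res library 2 and PW-Res library 1, each too small for a call. MEA1 was at 41.4, 45.3 and 47.8 FPKM in W-Con, 20.8, 20.8 and 18.4 FPKM in PW-Con, 52.6, 48.4 and 22.4 FPKM in W-Res and 45.0, 48.3 and 46.9 FPKM in PW-Res. PW-Con was the low group, and 1 W-Res library lay near it. The difference was 1.40 (SE 0.37). NCOA2, a coactivator of nuclear receptors, differed by 1.58 (SE 0.40), SLC35B4, a nucleotide sugar transporter, by 1.40 (SE 0.36), and RCC1, the exchange factor of the nuclear transport protein RAN, by 1.18 (SE 0.33). The call of RCC1 was lost without W-Res library 3, at a difference of 0.94.

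At the scaling of the deposited FPKM most gained genes had a negative effect in resveratrol litters, which was not so with the Ballgown model. CRYAB, a small heat shock protein of muscle and stressed cells, was at 3.64, 3.02 and 3.11 FPKM in W-Con, 2.45, 3.04 and 2.95 FPKM in PW-Con, 10.7, 9.90 and 7.21 FPKM in W-Res and 1.81, 3.57 and 1.61 FPKM in PW-Res. The 3 W-Res libraries stood above the other 9, the effect was -0.16 in control and -1.66 in resveratrol litters, and the difference was -1.5 (SE 0.33, adjusted p = 0.251 in limma). BTG1, an inhibitor of cell division, was at 49.0, 29.5 and 29.0 FPKM in W-Con, 40.8, 23.9 and 33.8 FPKM in PW-Con, 45.4, 55.6 and 53.2 FPKM in W-Res and 16.8, 13.4 and 17.3 FPKM in PW-Res. Here the weaned resveratrol piglets were the lowest group, and the difference was -1.53 (SE 0.35). CFAP100, a protein of cilia, was at 0.0385 to 0.511 FPKM in control litters, at 3.94, 3.39 and 2.86 FPKM in W-Res and at 0.597, 0.356 and 0.645 FPKM in PW-Res, with a difference of -1.65 (SE 0.29). MAB21L3 differed by -1.51 (SE 0.29) and KLHL24, an adaptor of a ubiquitin ligase, by -1.43 (SE 0.33), both at under 5 FPKM.

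Of the gained genes with a positive effect in resveratrol litters, 5 are named. SDCBP2, the scaffold protein syntenin-2, was at 47.9, 54.3 and 122 FPKM in W-Con, 71.9, 69.6 and 42.2 FPKM in PW-Con, 40.1, 20.3 and 42.8 FPKM in W-Res and 93.5, 103 and 102 FPKM in PW-Res. It rose by 1.57 in resveratrol litters, with no overlap, and the control libraries overlapped, and the difference was 1.77 (SE 0.52). IL28B, an interferon lambda of epithelia, was listed at 0, 0 and 1.53 FPKM in W-Con, 0.995, 1.46 and 0.296 FPKM in PW-Con, 0.102, 0 and 0 FPKM in W-Res and 5.01, 7.40 and 2.89 FPKM in PW-Res. Its difference was 2.05 (SE 0.56). RXRG, a retinoid X receptor, was at 3.23 to 4.93 FPKM in control litters, at 3.41, 3.28 and 5.71 FPKM in W-Res and at 16.4, 10.1 and 9.59 FPKM in PW-Res. The difference of 1.11 (SE 0.34) fell to 1.00, 0.99 and 0.88 without PW-Con library 3, W-Res library 2 and PW-Res library 1, which ended the call. KRT20, a keratin of mature villus cells, differed by 1.17 (SE 0.36) at 442 to 1257 FPKM. HHLA2, a B7 family ligand of T cells, differed by 1.24 (SE 0.31) at 4.82 to 17.6 FPKM. The Ballgown model ended the calls of SDCBP2, IL28B, RXRG and KRT20. The smooth muscle score ended those of SDCBP2, RXRG and KRT20, and the call of HHLA2 held with both.

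**Figure D2:**
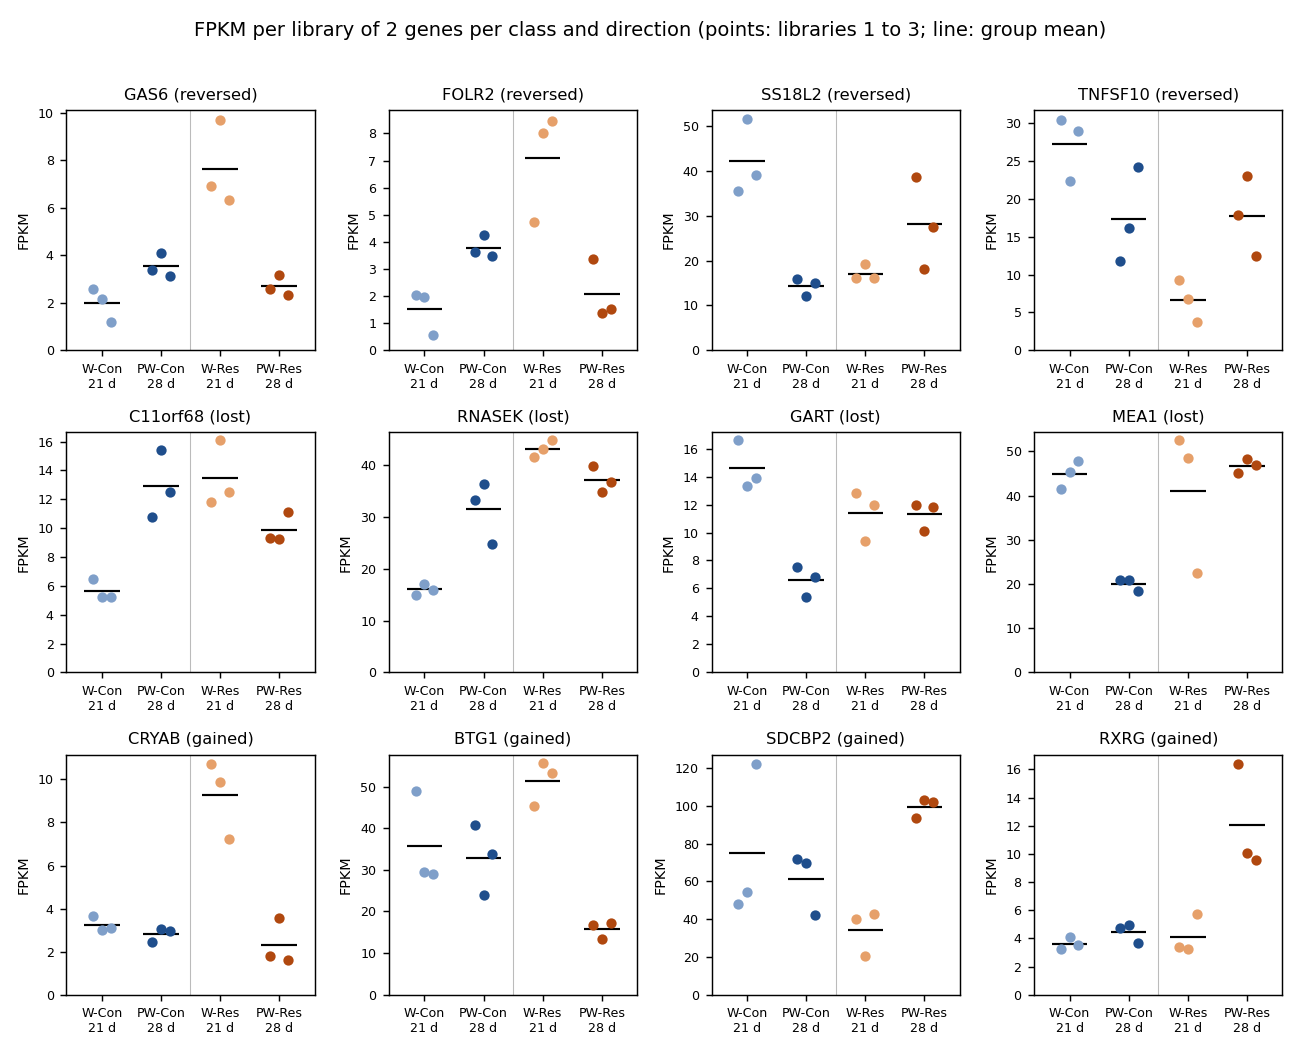
FPKM in each of the 12 libraries for 12 genes, 2 from each class and direction, with the 3 libraries of a group as points and the group mean as a line; W-Con and PW-Con are sucking and weaned control piglets, W-Res and PW-Res those of resveratrol sows. In GAS6, FOLR2, RNASEK and CRYAB the W-Res points are the highest, and in RXRG and SDCBP2 the PW-Res mean is the highest.

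The 5 genes that were called in both litters and in opposite directions are named for that reason, after their values were seen. C4BPA, an inhibitor of complement that binds C4b, rose in control litters from 11, 12 and 2.52 FPKM to 20.6, 19.8 and 20.1 FPKM. In resveratrol litters it fell from 58.5, 33.5 and 17.0 FPKM to 7.27, 9.68 and 22.2 FPKM. The effects were 1.37 and -1.39 and the difference was -2.76 (SE 0.78), and PW-Res library 3 lay within the range of the W-Res libraries. KIAA0930 also rose in control and fell in resveratrol litters, with effects of 1.38 and -1.68. Its W-Res value of 40.6 FPKM in library 3 compares with 6.0 and 7.71 FPKM in libraries 1 and 2. PPEF2, a calcium-dependent phosphatase, had effects of 1.13 and -1.13 at 0.262 to 4.78 FPKM. Under this name 4 loci were summed, and the call for the difference was lost with single loci. The ages overlapped in resveratrol litters, with 0.905 FPKM in W-Res library 3 and 1.77 FPKM in PW-Res library 3. SNRK, a kinase related to AMPK, went the other way. It was at 8.67, 3.18 and 8.06 FPKM in W-Con, 3.51, 0.749 and 3.20 FPKM in PW-Con, 2.18, 0.902 and 1.15 FPKM in W-Res and 10.4, 3.80 and 2.94 FPKM in PW-Res, with effects of -1.16 and 1.35. A gene known only as ENSSSCG00000028137 fell by 1.13 in control litters and rose by 1.33 in resveratrol litters. The Ballgown model ended the calls for the difference of C4BPA, KIAA0930 and PPEF2, and the smooth muscle score that of C4BPA.

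The genes were then read by function, in 31 lists, and by marker lists of cell types. Every count of called members below is to be read against the 1.81% of all genes called higher and the 5.95% called lower, and every median difference against -0.15 for all genes. Of 15 tested genes of fat uptake and chylomicron assembly 4 were called higher and 0 lower, all 4 of which lost the call with the smooth muscle score as a covariate and with the Ballgown model. Their median effect was -0.57 in control and 0.25 in resveratrol litters, and the median difference was 0.85. MTTP, which loads lipid onto apolipoprotein B, fell in control litters from 198, 285 and 371 FPKM to 135, 78.0 and 40.5 FPKM. It was at 157, 76.4 and 107 FPKM in W-Res and 108, 101 and 166 FPKM in PW-Res, and the difference was 2.02 (SE 0.59, adjusted p = 0.251 in limma). W-Con was the highest group, and the resveratrol libraries of the 2 ages overlapped. FABP1, the liver-type fatty acid-binding protein, fell in control litters from 3311, 11019 and 12407 FPKM to 2306, 2762 and 891 FPKM. It was at 5775, 3863 and 1809 FPKM in W-Res and 2031, 3577 and 8325 FPKM in PW-Res, a difference of 2.30 (SE 0.96), and this call was lost in 6 of the 12 fits with a library left out. CIDEB, a protein of lipid droplets and very low density lipoprotein assembly, had 86.4, 84.7 and 85.0 FPKM in W-Res and 117, 180 and 160 FPKM in PW-Res. In control litters it had 64.9, 113 and 199 FPKM in W-Con and 89.9, 99.3 and 63.7 FPKM in PW-Con. The difference was 1.26 (SE 0.49), and the call was lost in 3 of the 12 fits, with 0.85 without W-Con library 3. APOB itself, at 0.363 to 6.85 FPKM, differed by 1.48 (SE 0.64) and also lost its call in 6 of the 12 fits. FABP2 and ABCG8, the members with the largest differences among those not called, were at 1.77 (SE 0.82) and 1.44 (SE 0.73) and were not called. The number of called members went from 1 without PW-Con library 3 to 6 over the fits with a library left out, and it was 0 without both W-Res libraries 2 and 3, where W-Res is 1 library, while the median stayed between 0.60 and 1.36 in all alternatives.

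Other parts of absorption showed the same direction in their called members. Of 13 tested brush border hydrolases 3 were called higher and 0 lower, with a median difference of 0.53. Among all 13 the difference was positive for 9 and negative for 4. ENPEP, an aminopeptidase for acidic residues, fell in control litters from 143, 109 and 48.7 FPKM to 30.4, 29.8 and 24.7 FPKM. It was at 32.1, 14.1 and 37.0 FPKM in W-Res and 47.0, 17.1 and 41.4 FPKM in PW-Res, with a difference of 1.98 (SE 0.67). TMPRSS15, the enteropeptidase that activates trypsinogen, was at 3.15, 5.83 and 4.40 FPKM in W-Con, 2.12, 1.83 and 0.631 FPKM in PW-Con, 1.63, 0.444 and 0.953 FPKM in W-Res and 0.495, 7.45 and 9.19 FPKM in PW-Res. Its effect was -1.14 in control litters and 1.37 in resveratrol litters, where 1 weaned library stayed at the sucking level. The median of the brush border list turned to -0.09 without PW-Con library 3 and was 0.21 without W-Res library 2. No member was called with the smooth muscle score, at a median of 0.11, or with the Ballgown model, at 0.58. Of 16 transporters of sugars, peptides and amino acids, 2 were called higher and 0 lower, with a median difference of 0.31 that turned to -0.19 without PW-Res library 1. Among all 16 the difference was positive for 8 and negative for 8, so the list as a whole had no shared direction. SLC2A2, the basolateral glucose transporter GLUT2, was at 11.6, 10.1 and 15.2 FPKM in W-Con, 8.02, 5.90 and 3.55 FPKM in PW-Con, 3.09, 5.14 and 8.07 FPKM in W-Res and 12.6, 6.64 and 6.77 FPKM in PW-Res, with a difference of 1.61 (SE 0.49). SLC38A2, an amino acid transporter induced by amino acid shortage, differed by 1.03 (SE 0.44) at under 6 FPKM, and 5 fits lost the call. SLC15A1, the peptide transporter PEPT1, differed by 2.02 (SE 0.98) and SLC7A8 by -2.06 (SE 1.32), and neither was called.

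The mineral absorption list was drawn up for calcium, iron, zinc and phosphate handling. Of its 11 tested genes 3 were called higher and 0 lower, against 1.81% and 5.95% of all genes. Their median effect was -1.45 in control and 0.31 in resveratrol litters, the widest gap among the 31 function lists, with a median difference of 0.98. S100G, the calcium-binding protein calbindin-D9k, fell in control litters from 136, 415 and 2715 FPKM to 71.6, 62.4 and 33.6 FPKM. It was at 146, 1195 and 115 FPKM in W-Res and 262, 317 and 972 FPKM in PW-Res, with a difference of 3.97 (SE 1.5). ATP2B1, a calcium pump of the basolateral membrane, fell from 16.1, 18.1 and 127 FPKM to 6.99, 3.29 and 5.19 FPKM in control litters. It was at 10.8, 12.1 and 5.25 FPKM in W-Res and 10.8, 9.39 and 21.8 FPKM in PW-Res, with a difference of 3.05 (SE 0.93). SLC46A1, the proton-coupled folate transporter, differed by 2.25 (SE 0.96). In all 3 genes W-Con library 3 was far above the other W-Con libraries, and without it the differences were 2.80, 2.11 and 1.46, and 1 of the 3 was still called. TRPV6, the apical calcium channel, had its highest value of 26.6 FPKM in the same library and was not called, at 1.79 (SE 1.55). That library also had the lowest distal-minus-proximal marker score of the 12, at -3.84. With the distal-minus-proximal score as a covariate 2 members were called, at a list median of 0.85. The proximal markers of that score share SLC40A1, HEPH and CYBRD1 with the mineral absorption list. The list median was 0.58 without W-Con library 3 and 0.15 with the smooth muscle score as a covariate. SLC9A2, a sodium-proton exchanger, was the called member of 16 ion and water transport genes. It fell in control litters from 31.6, 33.4 and 90.1 FPKM to 14.8, 26.1 and 7.07 FPKM and was at 14.1, 12.1 and 15.9 FPKM in W-Res and 27.9, 21.8 and 19.8 FPKM in PW-Res, with a difference of 2.31 (SE 0.63) and no lost call without a single library.

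**Figure D3:**
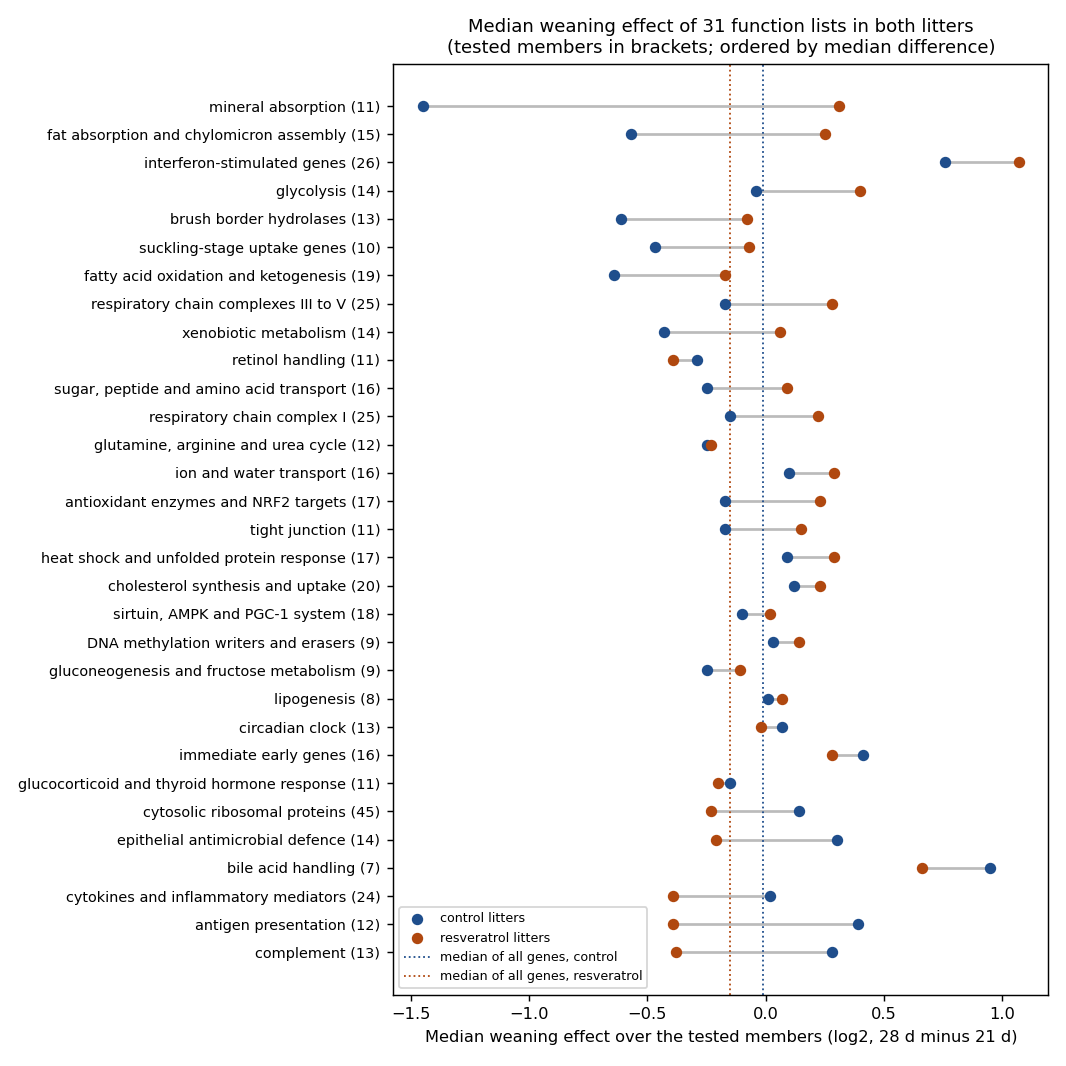
Median weaning effect (log2, weaned minus sucking) over the tested members of 31 function lists, in control litters (blue) and resveratrol litters (brown), ordered by the median difference, with dotted lines for the medians of all genes. Mineral absorption, with -1.45 and 0.31, and fat absorption, with -0.57 and 0.25, are at the top, and complement, with 0.28 and -0.38, is at the bottom.

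Villus enterocyte markers were looked at beside these genes. Of 10 villus markers, 2 were called higher and 0 lower (APOB and MTTP, which are also on the fat list), with a median difference of 1.29, and 0 were called with the smooth muscle score or with the Ballgown model. The median itself was 1.22 with that score and 1.02 with that model. The median weaning effect of the villus markers was -1.09 in control and 0.09 in resveratrol litters. With weaning, 4 of them were called lower in control and 0 in resveratrol litters, against 1.74% and 3.95% of all genes. Their median difference of 1.29 was larger than those of the mineral (0.98), fat (0.85), brush border (0.53) and transporter (0.31) lists. Of 10 proximal small intestine markers FABP1 and SLC2A2 were called higher, with a median of 1.05 that turned to -0.03 with the smooth muscle score as a covariate. The summed level of the villus markers was 9091 to 20718 FPKM in W-Con, 3973 to 12968 FPKM in PW-Con, 9586 to 15839 FPKM in W-Res and 6082 to 14715 FPKM in PW-Res, so that all groups overlapped. Crypt and cell division markers had no call and a median difference of 0.00 that went from -0.96 to 0.50 over the alternatives. The part of villus cell share in the absorption genes was not tested.

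Of genes of fuel use few were called. HADH, an enzyme of fatty acid oxidation, was the called member of 19 in a list with a median difference of 0.49, and was higher by 1.15 (SE 0.36), with 181, 198 and 211 FPKM in W-Con, 95.5, 145 and 132 FPKM in PW-Con, 99.6, 199 and 133 FPKM in W-Res and 167, 202 and 210 FPKM in PW-Res. The call was lost without PW-Con library 1 or W-Res library 1, at 0.97 and 0.92. Of 25 tested subunits of respiratory complex I, NDUFA1 was called higher at 1.16 (SE 0.35), and of 25 of complexes III to V, ATP5A1 at 1.16 (SE 0.46), with COX7A2 at 0.98 (SE 0.34) below the limit. Without W-Con library 3 neither NDUFA1, at 0.99, nor ATP5A1 was called. In these 2 lists 21 of 25 members each had a positive difference, against 5043 of 12886 genes, with medians of 0.31 and 0.43. The complex I median turned to -0.01 with the Ballgown model and to -0.16 with W-Res library 1 as the lone W-Res library. Of 45 tested cytosolic ribosomal proteins 40 had a negative difference, as did 7843 of all 12886 genes, and 4 were called lower and 0 higher, near the 5.95% of all genes. Their median was -0.34, and -0.13 with 1 call after median-of-ratios rescaling. RPL22 was at 238, 177 and 168 FPKM in W-Con, 219, 195 and 326 FPKM in PW-Con, 244, 252 and 305 FPKM in W-Res and 130, 139 and 154 FPKM in PW-Res, with a difference of -1.24 (SE 0.32) that was called in all 12 fits without a library. RPL9, RPS27 and RPS15 differed by -1.03, -1.10 and -1.04 and lost the call in 4, 6 and 8 of these fits, and 1 member was called without PW-Con library 3 or W-Res library 3. Ribosomal protein genes have many near-identical processed copies, so their FPKM are uncertain. No member of the glycolysis (14), gluconeogenesis (9) or cholesterol (20) lists was called, with median differences of 0.62, -0.10 and 0.14, and the last 2 medians took either sign over the alternatives. MLXIPL, the carbohydrate-responsive factor ChREBP, was the called member of 8 lipogenic genes, at -1.32 (SE 0.53), and lost the call in 7 fits.

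Of 13 tested complement genes 5 were called lower and 0 higher, against 5.95% of all genes called lower. The median effect of the list was 0.28 in control and -0.38 in resveratrol litters, and the median difference was -0.82. C4BPA is described above. CFD, the serine protease factor D of the alternative pathway, rose in control litters from 102, 79.1 and 48.2 FPKM to 200, 192 and 229 FPKM. It was at 141, 208 and 151 FPKM in W-Res and 234, 138 and 219 FPKM in PW-Res, so that W-Con was the low group, and the difference was -1.26 (SE 0.42), or -0.96 without W-Con library 3. C4A, of the classical pathway, was at 137, 72.8 and 88.9 FPKM in W-Con, 142, 214 and 166 FPKM in PW-Con, 114, 142 and 118 FPKM in W-Res and 70.8, 107 and 113 FPKM in PW-Res, a difference of -1.21 (SE 0.38). The sucking and weaned libraries were separated in opposite directions in the litters. C1QC, a chain of C1q made by macrophages, and CFI, the protease that cuts C3b and C4b, differed by -1.24 (SE 0.55) and -1.11 (SE 0.48), and lost the call in 8 and 9 of the 12 fits. The number of called members was 2 without W-Con library 3, and the median stayed between -1.05 and -0.25 in all alternatives. The macrophage markers as a list had C1QC as their called member of 4 and a median of -0.59. Their part in the complement result was not tested.

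Of 24 tested cytokine and inflammatory genes 5 were called lower and 0 higher, against 5.95% of all genes called lower, with a median difference of -0.54. All 5 called members encode chemokines. CCL21, which guides T cells and dendritic cells along lymphatics, was at 16.2, 40.5 and 17.1 FPKM in W-Con, 30.1, 44.1 and 25.3 FPKM in PW-Con, 44.3, 108 and 44.6 FPKM in W-Res and 16.8, 25.0 and 19.4 FPKM in PW-Res. It fell in resveratrol litters without overlap, and the difference was -2.03 (SE 0.57, adjusted p = 0.251 in limma). CCL19, the other ligand of the same receptor, rose in control litters from 17.3, 7.96 and 5.22 FPKM to 10.8, 105 and 44.7 FPKM, with overlap. It was at 23.2, 14.1 and 17.3 FPKM in W-Res and 7.72, 18.2 and 14.2 FPKM in PW-Res, with a difference of -2.40 (SE 0.94). CXCL8, the neutrophil attractant interleukin-8, was at 9.61, 10.5 and 7.21 FPKM in W-Con, 19.1, 6.88 and 15.9 FPKM in PW-Con, 8.39, 8.99 and 10.1 FPKM in W-Res and 4.28, 3.69 and 6.97 FPKM in PW-Res. PW-Res had the lowest mean, and the difference was -1.27 (SE 0.46). CXCL2 differed by -2.15 (SE 0.65), and the interferon-induced CXCL9 by -1.73 (SE 0.68) at 0.231 to 11.3 FPKM. Under the name CXCL2 6 loci were summed, and the call of CXCL2 was lost with single loci and with the Ballgown model. Whether these loci are copies of near-identical chemokine genes was not tested, so the level of CXCL2 is uncertain. Calls were lost in 5 fits without a library for CCL19 and 3 for CXCL9. Without W-Con library 3, 3 members were called.

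CXCL13, the B cell attractant of follicles, was the gene with the largest difference among the markers of lymphoid follicles. It rose in control litters from 4.40, 1.67 and 5.38 FPKM to 28.5, 24.6 and 6.14 FPKM. In resveratrol litters it was at 5.01, 5.71 and 0.493 FPKM in sucking and 1.25, 0.0710 and 0.385 FPKM in weaned piglets, a difference of -3.35 (SE 0.92). No single library ended the call, but the Ballgown model and the smooth muscle score did, for this gene and for S1PR2. S1PR2, a receptor that holds germinal centre B cells in place, differed by -1.86 (SE 0.55), and CD79B of the B cell receptor by -2.33 (SE 1.01). CD79B was at 37.5 FPKM in PW-Con library 2 and at 0.644 to 4.13 FPKM in the other 11 libraries. Its difference was -1.21 without that library and still called, and the call was lost in 7 of the 12 fits with another library left out. The summed level of 8 follicle markers, up to 2 of which were at 0 in a library, was 10.1 to 20.6 FPKM in W-Con, 22.4 to 79.7 FPKM in PW-Con, 10.1 to 29.2 FPKM in W-Res and 7.91 to 16.5 FPKM in PW-Res, and 2 of 7 tested members were called lower with a median difference of -1.86. That median was -0.93 without W-Res library 2 and -0.67 with the smooth muscle score. The part of follicle content in the chemokine and defence genes was not tested. PLA2G2D, a secreted phospholipase of lymphoid tissue, rose in control litters from 19.6, 13.7 and 14.9 FPKM to 32.5, 36.7 and 32.0 FPKM. It was at 6.35, 2.64 and 13.4 FPKM in W-Res and 1.87, 1.51 and 6.17 FPKM in PW-Res, with a difference of -2.0 (SE 0.66). Its call held in all 24 alternatives. It was the called member of 14 antimicrobial defence genes. REG3G, the bactericidal lectin, was at 97.8, 0 and 33.8 FPKM in W-Con, 1657, 8.59 and 1330 FPKM in PW-Con, 11.4 to 45.3 FPKM in resveratrol litters and was not called, at -4.58 (SE 2.71, adjusted p = 0.464 in limma). LYZ was at 1.96 (SE 1.5). SLA-DOA, which edits peptide loading of class II molecules in B cells, was the called member of 12 antigen presentation genes, at -1.25 (SE 0.56), and lost the call in 9 fits.

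**Figure D4:**
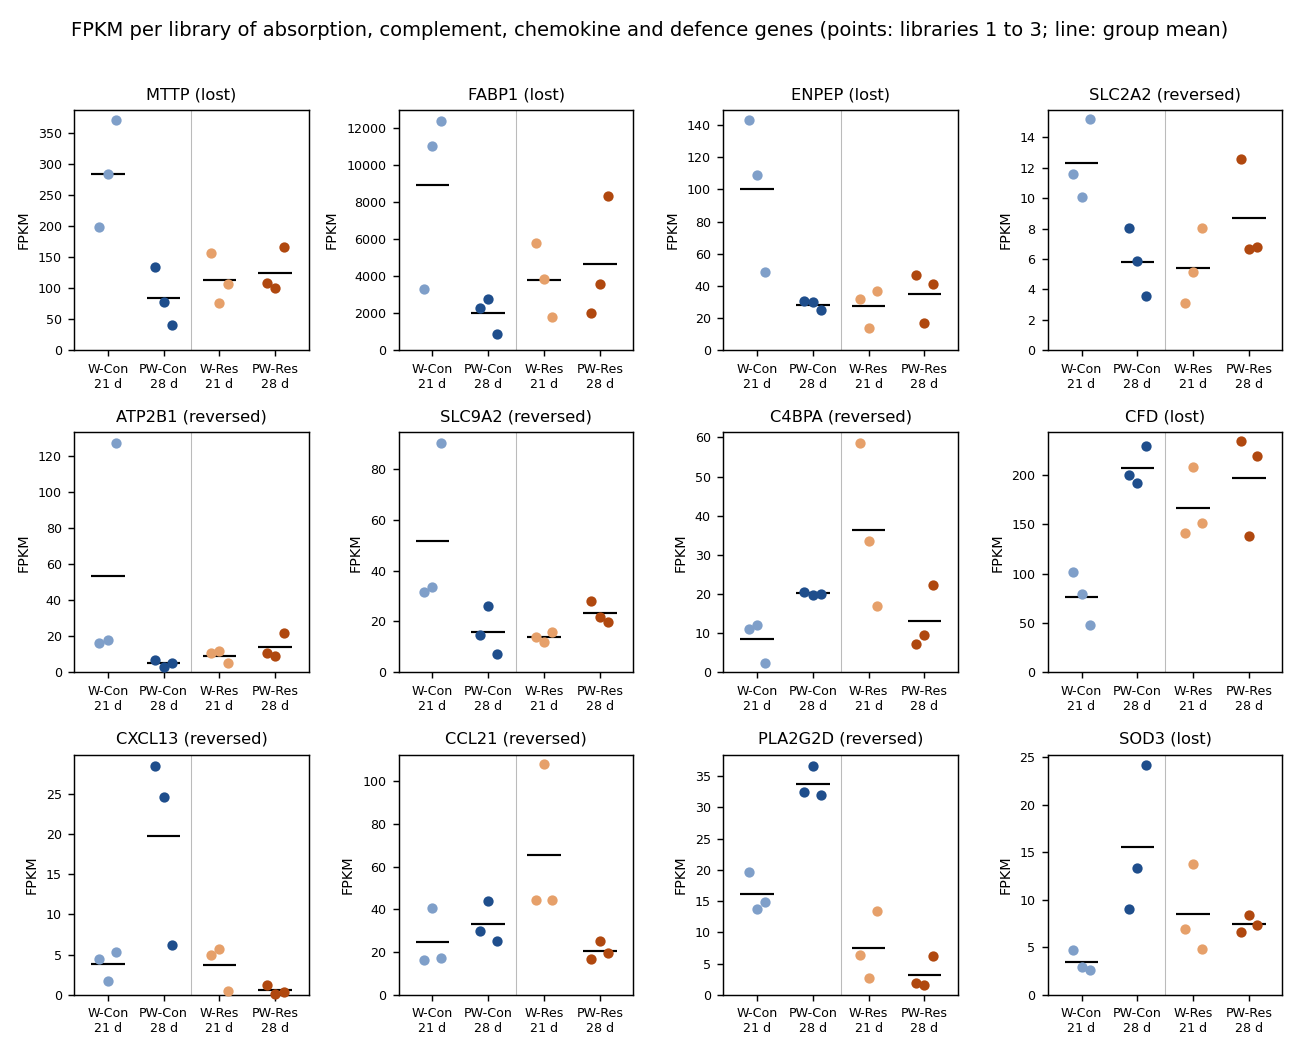
FPKM in each of the 12 libraries for 12 genes of absorption, complement, chemokines and defence, with points for libraries and a line for the group mean. For MTTP, FABP1, ENPEP and SLC2A2 the W-Con mean is the highest, and for PLA2G2D and CXCL13 the PW-Con mean is the highest.

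The marker list with the largest median difference was that of smooth muscle, which forms the outer wall of the gut and the thin muscle layer under the mucosa. Of 10 tested smooth muscle markers 7 were called lower and 0 higher, against 5.95% of all genes called lower, with a median effect of 0.35 in control and -2.16 in resveratrol litters and a median difference of -2.44. TPM2, a tropomyosin of the contractile filaments, was at 111, 157 and 36.0 FPKM in W-Con, 99.7, 162 and 134 FPKM in PW-Con, 571, 1089 and 115 FPKM in W-Res and 118, 107 and 28.3 FPKM in PW-Res. The difference was -3.12 (SE 1.13). TAGLN, an actin-binding protein of smooth muscle, was at 144, 180 and 59.9 FPKM in W-Con, 188, 185 and 158 FPKM in PW-Con, 593, 1525 and 173 FPKM in W-Res and 161, 126 and 84.2 FPKM in PW-Res, a difference of -2.77 (SE 0.91). In both genes W-Res libraries 1 and 2 were the highest of the 12, W-Res library 3 lay near the other groups, and W-Con library 3 and PW-Res library 3 were the lowest. DES, ACTG2, CNN1, SMTN and SYNM, for desmin, the gut smooth muscle actin and other filament proteins, were also called, at -3.27, -3.12, -2.82, -2.10 and -2.11. ACTG2 turned to 0.04 with the Ballgown model. The 7 called members were reduced to 4 without any 1 of W-Con library 3, PW-Con library 2, W-Res library 1, W-Res library 2 or PW-Res library 3. The summed level of the list was 208 to 846 FPKM in W-Con, 540 to 769 FPKM in PW-Con, 819 to 5264 FPKM in W-Res and 248 to 792 FPKM in PW-Res, and no member was at 0 in any library. With the Ballgown model no smooth muscle, complement, fat absorption or mineral absorption gene was called, and 1 cytokine gene was, while the list medians kept their signs, at -0.28, -0.25, 0.74, 1.19 and -0.17.

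Genes of the nerve net that lies between the muscle layers went with them. Of 6 tested enteric neuron and glia markers, 3 were called lower, with a median of -1.10, and 0 were called with the smooth muscle score (median -0.24) or with the Ballgown model (median -0.26). PRPH, a neuronal filament, was at 3.31, 2.55 and 0.849 FPKM in W-Con, 3.33, 4.85 and 6.01 FPKM in PW-Con, 4.91, 13.4 and 4.58 FPKM in W-Res and 3.01, 2.92 and 1.16 FPKM in PW-Res, with a difference of -2.15 (SE 0.60). UCHL1 differed by -1.60 (SE 0.55) and the glial filament GFAP by -1.04 (SE 0.41), the last with the call lost in 5 fits. ESAM of endothelium differed by -1.37 (SE 0.38). CHGA was the called member of 10 tested markers of hormone-secreting cells, at -1.13 (SE 0.51), with 7 fits that lost the call. The median of that list was -0.70 and turned to 0.46 with the Ballgown model. With the smooth muscle score as a covariate, added after seeing the data, the count of called genes for the whole comparison went from 1000 to 504, and complement from 5 to 1, fat absorption from 4 to 0, mineral absorption from 3 to 0 and the cytokines from 5 to 4 lower and 1 higher. The median differences of these lists did not all shrink with the calls. That of fat absorption was higher with the score than the 0.85 without it. Complement went from -0.82 to -0.53, the cytokines from -0.54 to -0.26 and mineral absorption from 0.98 to 0.15. The median over all genes went from -0.154 to -0.025. The highest scores belonged to W-Res libraries 1 and 2, so that muscle content and the diet of the sow at 21 days cannot be told apart in them.

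**Figure D5:**
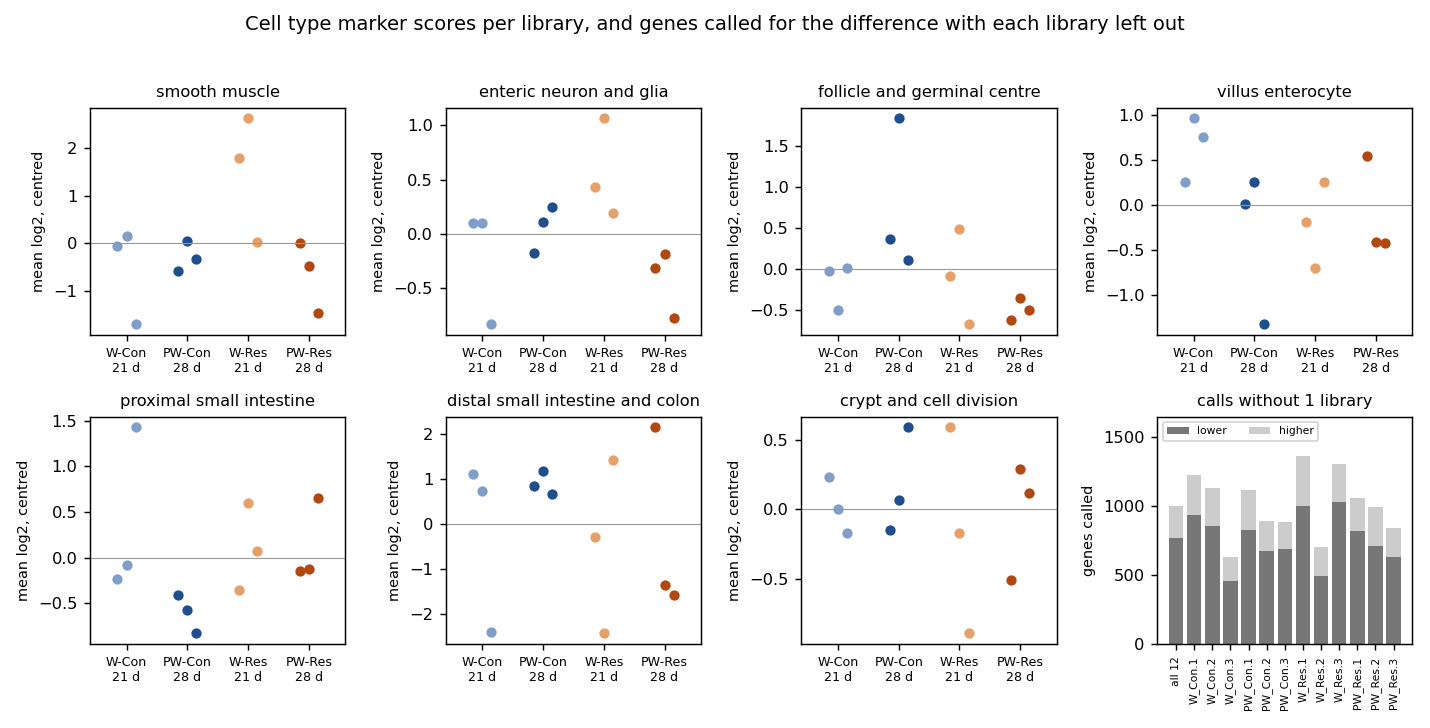
Mean log2(FPKM + 1) of the tested members of 7 marker lists in each library, centred over the 12 libraries, and in the last panel the number of genes called for the difference with all libraries and with each left out (dark bars lower, light bars higher). W-Res libraries 1 and 2 have the highest smooth muscle scores, at 1.80 and 2.64, and the count of calls goes from 630 without W-Con library 3 to 1363 without W-Res library 1.

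The systems for which resveratrol is best known were read in the same way, where 7.76% of all genes were called in either direction. None of 18 tested genes of the sirtuin, AMPK and PGC-1 system was called, and their median difference of 0.13 stayed between 0.05 and 0.31 in all alternatives, though 1 member was called higher after quantile normalization and without W-Con library 3, and 1 higher and 1 lower with the smooth muscle score as a covariate. PRKAA1, a catalytic subunit of AMPK, differed by 0.84 (SE 0.52). SIRT1, named here after its values were seen, was at 1.27, 0.729 and 1.16 FPKM in W-Con, 0.931, 0.934 and 0.598 FPKM in PW-Con, 0.936, 0.945 and 1.02 FPKM in W-Res and 0.713, 0.454 and 0.880 FPKM in PW-Res. Its difference of -0.06 (SE 0.27) took either sign over the alternatives. Of 17 antioxidant and NRF2 target genes, 1 was called higher and 1 lower, with a median difference of 0.24. TXNRD1, a thioredoxin reductase, was at 115, 85.7 and 106 FPKM in W-Con, 86.4, 66.7 and 62.1 FPKM in PW-Con, 102, 54.0 and 80.4 FPKM in W-Res and 89.9, 115 and 144 FPKM in PW-Res, a difference of 1.08 (SE 0.37). It lost the call in 4 of the 12 fits. SOD3, the extracellular superoxide dismutase, rose in control litters from 4.75, 2.94 and 2.57 FPKM to 9.00, 13.3 and 24.2 FPKM. It was at 6.91, 13.8 and 4.85 FPKM in W-Res and 6.61, 8.44 and 7.33 FPKM in PW-Res, a difference of -1.89 (SE 0.54). This call held without any single library but was lost with the Ballgown model and with the smooth muscle score. Of 14 xenobiotic genes, ABCG2, an efflux pump of the apical membrane that carries polyphenol conjugates, was called. It fell in control litters from 33.1, 39.5 and 40.5 FPKM to 17.0, 21.1 and 5.73 FPKM, was at 24.1, 31 and 30.7 FPKM in W-Res and 36.3, 19.2 and 27.2 FPKM in PW-Res, and differed by 1.38 (SE 0.54), and 3 fits without a library lost the call, with 0.86 without PW-Con library 3, as did the Ballgown model and the smooth muscle score.

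Among the other lists, interferon-stimulated genes had medians of 0.76 in control and 1.07 in resveratrol litters and 1 member of 26 called for the difference. With weaning, 3 members were called higher in control and 14 in resveratrol litters, against 1.36% and 0.986% of all genes. These 2 counts are no test of the difference. Their median difference of 0.63 turned to -0.65 with the Ballgown model, -0.15 with the smooth muscle score and -0.17 with W-Res library 1 as the lone W-Res library. OASL and IFIT1, which act against viral RNA, differed by 1.76 (SE 1.31) and 1.96 (SE 1.45) and were not called. With a library left out OASL differed by 0.41 without W-Res library 2 to 2.62 without W-Res library 1, and IFIT1 by 0.69 without W-Con library 1 to 2.80 without W-Res library 1. OASL was at 24.6 to 50.7 FPKM in W-Con and 98.2 to 232 FPKM in PW-Con, and at 75.2, 2.59 and 44.2 FPKM in W-Res and 293, 622 and 166 FPKM in PW-Res, so that the ages did not overlap in either diet. TRIB3, a pseudokinase of the amino acid and ER stress response, was called higher at 1.42 (SE 0.46), with 10.1, 3.68 and 8.91 FPKM in W-Res and 17.8, 14.6 and 16.1 FPKM in PW-Res, and 8.76 to 19.0 FPKM in control litters. FOSL1, of the AP-1 factors, was lower at -1.29 (SE 0.38), CLCN5, an endosomal chloride channel of protein uptake, higher at 1.84 (SE 0.53), TET2, an eraser of DNA methylation, higher at 1.09 (SE 0.42), CIDEC, a lipid droplet protein, higher at 1.35 (SE 0.46), and ABAT, which breaks down GABA, higher at 1.73 (SE 0.75). Of these 5, ABAT lost the call in 7 and TET2 in 4 of the 12 fits, both without W-Con library 3 among others, at 1.23 and 0.92. Of 11 tight junction genes and 13 clock genes none was called. The 11 retinol genes had no call and a median difference of 0.31, although the median of their effects was lower in resveratrol than in control litters, at -0.39 and -0.29.

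The lists not yet described had at most 1 called member each. The median difference was -0.53 over 7 bile acid genes and -0.31 over 11 glucocorticoid and thyroid hormone genes, with none called. It was 0.15 over 17 heat shock and unfolded protein genes, -0.21 over 16 immediate early genes, 0.49 over 10 suckling-stage uptake genes, 0.30 over 12 genes of glutamine, arginine and the urea cycle, and -0.09 over 9 genes of DNA methylation. These hold TRIB3, FOSL1, CLCN5, ABAT and TET2 as their called members. The medians of the bile acid, glucocorticoid, heat shock, immediate early and DNA methylation lists took either sign over the alternatives, with a range of -0.67 to 0.38 for heat shock and -0.37 to 0.35 for immediate early genes. Of the marker lists, distal gut (12 tested), goblet cell (6), fibroblast (6) and T cell (11) markers held no call, with median differences of -0.61, -0.01, -0.63 and 0.31, and the first 3 of these took either sign over the alternatives. Red blood cell, pancreatic and hepatocyte lists had 2 tested members each and no call, and no neutrophil marker was high enough to be tested.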

How the data were processed

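The authors sequenced jejunum RNA as paired-end reads and, per the study's methods for the control libraries, aligned them to the Ensembl pig genome with TopHat and estimated levels with StringTie and Ballgown. The submitters' processing notes name Sscrofa10.2, HISAT2 2.0, StringTie 1.3.0, Bowtie 0.12.2 and the mouse build mm8 without a role, so the aligner of the deposited values is not settled. The deposited FPKM of 41264 loci carry no further scaling between libraries that is stated. No test used the 17650 unnamed loci (42.8%), and the other 23614 were added up under 17049 gene names. Of 6232 Ensembl identifiers 2139 were given a symbol. Genes with a mean of at least 0.5 FPKM (12886) entered as log2(FPKM + 1). limma 3.58.1 under R 4.3.3 (lmFit, contrasts.fit, eBayes with a trend) was run over all 12 libraries in 4 groups, with Benjamini-Hochberg adjustment over all genes. The labels call the 3 samples of a group biological replicates. The fit was tested on simulated data. Named were the 5 genes with the smallest P in each class and direction (symbol known, mean 1 FPKM or more), the called members of 31 function and 19 marker lists, and some further members with large differences. The members and lists were chosen with earlier results of these data known. Tried in its place were median-of-ratios and quantile scaling, 0.1 as pseudocount, a floor of 5 FPKM or none, eBayes without trend, a replicate block, the unmoderated Ballgown model (covariate: log2 sum below percentile 75), single loci, each replicate left out, the 6 libraries of a diet alone, a class limit of 0.3 and 3 added later, 2 marker score covariates and the fit without W-Res libraries 2 and 3. Coordinates, sequences and a few genes of these lists are not reported here.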

Additional observations from a re-analysis of the deposited data

Results flagged for a closer look

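The effect of weaning differed between the 2 diets for 1000 genes by the test of the difference itself, in limma with the P and fold limits of the study, and for 318 genes with the Ballgown model, 112 of them shared, with no adjusted p under 0.05 in limma and 1770 genes at an unadjusted P under 0.05. Opposite calls in the litters were found for 5 genes, with differences of -3.06 for KIAA0930, -2.76 for C4BPA, 2.51 for SNRK, 2.46 for ENSSSCG00000028137 and -2.26 for PPEF2, each with an adjusted p of 0.251 in limma.

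Loci without a gene name, which no comparison above uses, had a median of 0.685 FPKM in W-Res library 2 and 0.419 FPKM in W-Res library 3, against 0.0841 to 0.162 FPKM in the libraries of control litters. These loci held 8.47% and 8.02% of the summed FPKM of the 2 libraries, and 5.48% to 6.81% in the other 10. The number of genes over 1 FPKM was 12151 in W-Res library 2 and 10323 to 11418 in the other 10 libraries apart from W-Res library 3, which had 11485.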

How the results depend on the processing

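The number of genes called for the difference was 364 with a minimum of 5 FPKM, 318 with the Ballgown linear model, 504 with the smooth muscle score as a covariate, and 630 to 1363 with a library left out. In control litters it was 783 with a pseudocount of 0.1, 219 with a minimum of 5 FPKM and 342 to 510 with a library left out. In resveratrol litters it was 1237 with a pseudocount of 0.1, 212 with a minimum of 5 FPKM, 410 after quantile normalization, 234 with the Ballgown model, and 389 without W-Res library 2 to 1095 without W-Res library 1. The limit of 0.3 gave 591 reversed, 132 lost and 264 gained genes. The cause was not tested in these cases. With a minimum of 5 FPKM fewer genes were tested (6302). Of the 91 called genes that the naming rule gave, 18 kept the call in every alternative, 26 lost it without W-Con library 3, 66 lost it with the Ballgown model, where 1 more turned in sign, and 48 with the smooth muscle score, where 2 more did. Signs turned with the Ballgown model for FABP6 (0.02), OASL (-0.85) and ACTG2 (0.04), with the smooth muscle score, which holds both genes, for ACTG2 (0.31) and CNN1 (0.16), and for SIRT1 with median-of-ratios rescaling (0.02), quantile normalization (0.20), without PW-Res library 2 (0.04) and without W-Con library 2 (0.06), with -0.16 to 0.06 over the fits with a library left out. Over 18 pairs of libraries with the same replicate number the deviations correlated at -0.26 to 0.30, with 5 over 0.1. Pairs with different numbers reached -0.271 and 0.360. These values cannot show whether samples with the same number came from 1 litter. With the replicate block 1059 genes were called for the difference, 401 in control and 641 in resveratrol litters. Without counts, depth per gene is unknown.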
